A study of Mus musculus with 51 samples.

Results

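The clustered protocadherin genes were taken from mouse bone data as every gene whose name began with Pcdha, Pcdhb, Pcdhga, Pcdhgb or Pcdhgc, which gave 59 of the 23358 entries of the femur RPKM files. Of these members, 15 belonged to the alpha cluster, 22 to the beta cluster and 22 to the gamma cluster, and 58 were also among the 25938 genes of the Tet femur counts (all but Pcdha4-g). Clustered protocadherins are cadherin-type adhesion proteins of the cell surface, best known from neurons, where each cell switches on its own few isoforms and cells that carry the same set recognise each other. In the alpha and gamma clusters each member has its own large first exon and promoter, which is spliced to constant exons shared by the whole cluster, whereas each beta member is encoded by a single exon. The C-type genes (Pcdhac1, Pcdhac2, Pcdhgc3, Pcdhgc4 and Pcdhgc5) lie at the ends of the alpha and gamma clusters and are used more broadly than the others. In other tissues, choice among the members is known to involve DNA methylation, H3K9me3 and CTCF.

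The study asked how vitamin C (VitC) and the TET enzymes, which oxidise 5-methylcytosine to 5-hydroxymethylcytosine (5hmC), act on bone. RNA was sequenced from femurs of C57BL/6 mice at 20 weeks of age, after the marrow was flushed and the periosteum removed. There were 3 groups of 3 libraries, WT and 2 groups of Gulo knockout mice (Gulotm1Mae), which cannot make VitC. The knockouts received 3.3 g/L VitC in their drinking water either for all 20 weeks (VitC+) or only until week 15 (VitC+/-). A second set of femurs at 11 weeks of age held 3 libraries of each genotype, namely Tet1/2 cKO, Tet2 cKO, Tet1 cKO and Ctrl. The cKO mice carried floxed Tet1, Tet2 or both, and all groups including Ctrl carried Prrx1-Cre, which acts in limb mesenchyme and its descendants, so that other cells in the same RNA are not targeted. Peak lists of 5hmC (hMeDIP-seq) came from femurs of the VitC+, Tet1/2 cKO, VitC+/- and Ctrl groups. Lists of 5hmC, H3K27me3 and H3K9me3 came from MC3T3-E1 cells, a clonal pre-osteoblast line from mouse calvaria, which grew in medium without VitC (VitC-) or with 50 µg/ml of it (VitC+). Each group had 1 list, so that differences between lists had no replicate error and were not tested.

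The VitC libraries held 31.2 to 47.6 M reads, except for WT replicate 1 with 7.62 M, and the Tet libraries held 28.6 to 49.8 M. All 16 osteoblast and osteocyte markers were measured, as were all 10 neutrophil markers. The targeted genes were not a check of the labels, because RPKM and counts over whole genes do not resolve a deleted exon. Gulo was at 0.539, 0.443 and 0 scaled RPKM in the WT libraries, at 0.239, 0.0336 and 0.0269 in VitC+ and at 0.0123, 0.0134 and 0.0178 in VitC+/-. Gulo was thus listed at 0 in the library labelled WT replicate 3, and among the knockouts it was highest in the one labelled VitC+ replicate 1. Tet1 counts were not lower in Tet1 cKO (532 to 773) than in Ctrl (374 to 435).

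The 3 clusters lie next to each other on chromosome 18 of mm10, all on the plus strand. The alpha cluster was taken as chr18:36930285-37187660 (257 kb), the beta cluster as chr18:37264998-37521419 (256 kb) and the gamma cluster as chr18:37661945-37841872 (180 kb). The TruSeq v2 kit does not mark strand, and reads in constant exons cannot be given to a single alpha or gamma member. RPKM divides by the full transcript length, so that levels of alpha and gamma members are uncertain and lie low beside those of the single-exon beta members.

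Femurs expressed the beta and gamma clusters at low levels and the alpha cluster hardly at all. In the VitC femurs, the RPKM values summed over a cluster and scaled between libraries ranged from 3.05 to 11.7 for beta, from 2.196 to 13.3 for gamma and from 0 to 0.239 for alpha. Only 2 members, Pcdhb9 and Pcdhgc3, reached an RPKM of at least 1 in 3 libraries, the filter applied before testing. Pcdhgc3, a C-type member known for broad use across cell types, gave 44.9 to 61.3% of the gamma sum and had the highest mean level of all members, 3.18 scaled RPKM over the 9 libraries. Pcdhb9 was the highest beta member in 9 of 9 libraries and gave 17.0 to 31.1% of the beta sum. In RNA of whole bone pieces, fewer cells of a type and less RNA per cell cannot be told apart. The remaining members were spread over a wide low range, with the median of the member means at 0.231 scaled RPKM in beta and 0.122 in gamma.

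Most members were detected in most libraries. In the beta cluster 15 of 22 members were above 0 in every VitC library, and in the gamma cluster 10 of 22. Pcdhb1 was listed at 0 in all 9 VitC and all 12 Tet libraries, as was Pcdhac1. In the alpha cluster 4 of 15 members were at 0 in all 9 VitC libraries, and 7 of 14 were at 0 in all Tet libraries. Pcdhac2, the C-type alpha member, was the highest of its cluster in both experiments, with a mean of 0.0862 scaled RPKM in the VitC femurs and of 50.6 normalized counts in the Tet femurs.

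**Figure D1:**
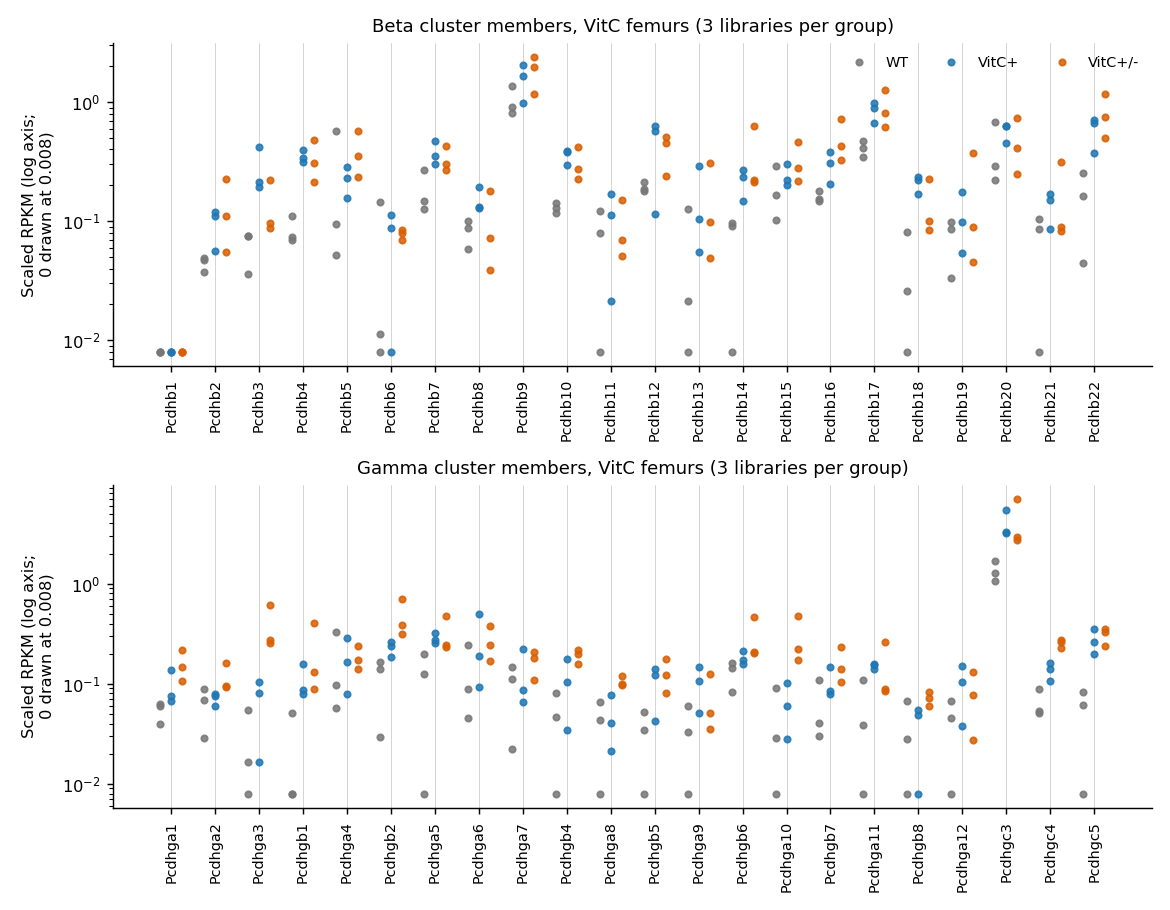
Scaled RPKM (log axis) of the beta and gamma members in chromosomal order in the VitC femurs, with 1 point per library and 3 libraries per group (WT grey, VitC+ blue, VitC+/- orange). Values of 0 are drawn at the bottom. Pcdhb9 and Pcdhgc3 stand above the other members of their clusters, and all 22 gamma members have a higher mean in VitC+/- than in WT.

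The comparison of VitC+/- with VitC+ asks what withdrawal of VitC did to knockout mice. Neither tested member passed the threshold (limma, adjusted p under 0.05, 0 of 2, and 0 at an unadjusted p under 0.05), where 13.4% of the 12586 genes tested passed, 5.93% as higher and 7.52% as lower. Pcdhgc3 was at 3.22, 3.32 and 5.40 scaled RPKM in the VitC+ libraries and at 2.90, 2.76 and 6.97 in the VitC+/- libraries. The ranges overlapped, and the log2 difference was -0.0042 with an SE of 0.334 (limma, adjusted p = 0.995). Pcdhb9 was at 0.987, 1.66 and 2.06 in VitC+ and at 1.97, 1.18 and 2.37 in VitC+/-, with a log2 difference of 0.18 and an SE of 0.288 (limma, adjusted p = 0.715).

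Members below the filter were described without it. Of the 54 members above 0 in at least 1 VitC library, 35 had the higher mean in VitC+/- and 16 the lower, against 51.7% and 46.9% of all genes above 0. Without VitC+ replicate 1 the split was 27 to 24. In 7 members, all in the gamma cluster, every VitC+/- library lay above every VitC+ library, and in 1 alpha member every library lay below, against 17.7% and 16.3% of all genes. Pcdhgc4, a C-type member, was among the 7, with 0.162, 0.106 and 0.141 scaled RPKM in VitC+ and 0.273, 0.230 and 0.261 in VitC+/-. The separate alpha member was Pcdhac2, at 0.107, 0.239 and 0.213 in VitC+ and at 0, 0 and 0.0446 in VitC+/-, which is 15, 51 and 57 reads against 0, 0 and 12. With a filter of an RPKM of at least 0.1 in 3 libraries, 1 of 41 members passed the threshold, higher in VitC+/- (4.84% of all genes passed in that direction and 6.09% as lower). This was Pcdhga3, named after its values were seen, with 2, 15 and 24 reads in VitC+ and 46, 39 and 141 in VitC+/- (limma, adjusted p = 0.0480). It met this filter only through its VitC+/- libraries, so that the filter itself selected it for a high level there, and without VitC+ replicate 1 it missed the threshold (limma, adjusted p = 0.140). Pcdhac2 had an adjusted p of 0.0767 under this filter and of 0.0859 without that library (limma). In edgeR on the whole reads that the RPKM values imply, Pcdhga3 had an adjusted p of 0.0695, or of 0.166 without VitC+ replicate 1. For Pcdhac2 these 2 edgeR fits gave an adjusted p of 0.0832 and 0.126. With all libraries 0 of 42 members passed in edgeR, against 4.37% of all genes as higher and 6.49% as lower.

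The comparison of VitC+/- with WT sets VitC-deprived knockouts against animals that make VitC themselves. Pcdhgc3 was higher in VitC+/- and passed the threshold, 1 of 2 tested members, where 31.3% of all genes passed and 15.3% passed as higher. It was at 1.27, 1.68 and 1.06 scaled RPKM in the WT libraries, and all 3 VitC+/- libraries lay above these. The group means were 4.21 ± 2.39 in VitC+/- and 1.34 ± 0.314 in WT (SD, n = 3), the log2 difference was 1.26 with an SE of 0.334 (limma, adjusted p = 0.0198), and the reads behind the values were 487, 425 and 1622 against 44, 305 and 190. Without WT replicate 3, the library with no Gulo reads, the difference was 1.15 and missed the threshold (limma, adjusted p = 0.0718). Over all alternatives the adjusted p of Pcdhgc3 lay between 0.0144 and 0.0718, and 18 of 20 passed. Both that missed the threshold left out WT replicate 3, the edgeR fit with a difference of 1.49 and an adjusted p of 0.0667. Pcdhb9 was at 1.38, 0.910 and 0.810 in WT, overlapped with VitC+/- and had a log2 difference of 0.59 with an SE of 0.288 (limma, adjusted p = 0.143).

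**Figure D2:**
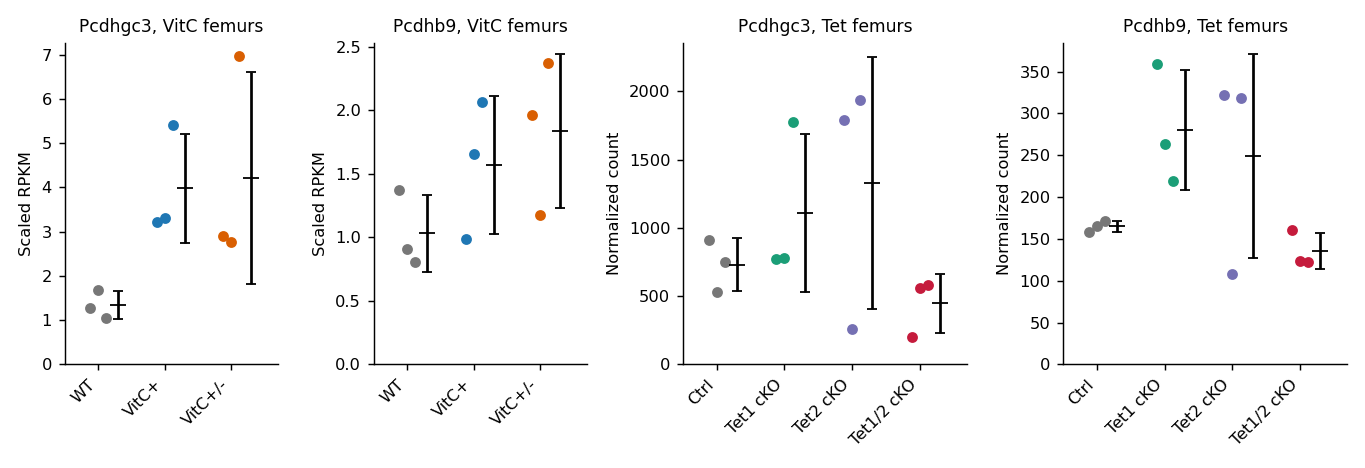
Levels of Pcdhgc3 and Pcdhb9 in each library of the VitC femurs (scaled RPKM) and the Tet femurs (normalized count). Coloured points are libraries, and the black dash and bars beside them are the group mean ± SD (n = 3). For Pcdhgc3 the WT libraries (1.06 to 1.68) lie below those of both knockout groups, whereas in the Tet femurs each cKO group overlaps with Ctrl.

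The low members lay in the same direction. Of the 54 detected members, 47 had the higher mean in VitC+/- and 7 the lower, against 52.2% and 46.4% of all genes above 0. All 22 gamma members and 21 of 21 detected beta members had the higher mean, whereas 7 of the 11 detected alpha members had the lower. In 24 members every VitC+/- library lay above every WT library, 10 of them beta and 14 gamma, and in 0 members the reverse, against 19.3% and 15.8% of all genes. Under the lower filter 9 of 41 members passed as higher (13.6% of all genes passed in that direction) and 0 as lower (12.5%), but 2 of the 9 (Pcdhga3 and Pcdhga10) met that filter only through VitC+/-, the group where they were high. The filter of the edgeR fit can admit a member in the same way, so that these counts are a description. In edgeR on implied reads 11 of 42 passed as higher (12.8% of all genes, with 13.3% as lower). The 11 were Pcdhb4, Pcdhb14, Pcdhb16, Pcdhb22, Pcdhga3, Pcdhga10, Pcdhgb1, Pcdhgb2, Pcdhgc3, Pcdhgc4 and Pcdhgc5, named after their values were seen. Of the other C-type genes, Pcdhgc5 was at 0, 0.0821 and 0.0609 scaled RPKM in WT and at 0.237, 0.330 and 0.355 in VitC+/- (edgeR, log2 difference 2.39, adjusted p = 0.0201). Pcdhgc4 was at 0.0540, 0.0513 and 0.0882 in WT, below all VitC+/- libraries (edgeR, log2 difference 1.91, adjusted p = 0.0126). Without the shallow WT replicate 1, 9 of 43 members passed in edgeR, all higher, against 12.7% of all genes as higher and 13.5% as lower. Without WT replicate 3 the edgeR count was 1 in place of 11, namely Pcdhgc4 (log2 difference 2.26, edgeR, adjusted p = 0.0301), and calls over all genes also dropped, to 5.70% as higher and 6.66% as lower. The mean was then higher in 46 of 54 detected members, and the median log2 difference of the 42 members in the edgeR fit was 1.15 against 1.26 with all libraries.

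WT and VitC+ differed in genotype and in the source of VitC, which WT mice made themselves and VitC+ mice received in drinking water. Their comparison uses the same WT libraries as the one above. Neither tested member passed the threshold, and 0% of all genes did in limma, with 1 of the 2 members and 22% of all genes at an unadjusted p under 0.05. In edgeR on implied reads 0 of 42 members passed, against 0.0684% of all genes as lower. Pcdhgc3 was lower in each WT library than in each VitC+ library, with a log2 difference of -1.27 and an SE of 0.334 (limma, adjusted p = 0.103). Of the 54 detected members, 44 had the lower mean in WT and 7 the higher, against 47.1% and 50% of all genes. In 20 members every WT library lay below every VitC+ library and in 0 above, against 12.6% and 9.83% of all genes. Without WT replicate 3 the numbers were 40 lower, 11 higher and 21 lower without overlap, and without VitC+ replicate 1 they were 44, 7 and 28, where 15.4% of all genes lay lower without overlap in either case. Pcdhgc5 was one of the 20, with 0.197, 0.356 and 0.263 scaled RPKM in VitC+.

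Markers of several cell types moved with the low WT values, although the marrow had been flushed and the periosteum removed before RNA was taken. The summed scaled RPKM of the endothelial list was 64.0 to 73.3 in WT, 102 to 122 in VitC+ and 97.3 to 125 in VitC+/-, so that WT lay below both knockout groups. The osteoclast list had the same order between WT (786 to 859) and the others (1879 to 2580 in VitC+ and 2927 to 6491 in VitC+/-). The neutrophil list lay the other way, at 53187 to 75071 in WT, 29865 to 47205 in VitC+ and 7175 to 24152 in VitC+/-, and 10 of its 10 genes passed as lower in VitC+/- against WT. Transcripts of neutrophil genes thus remained after the flushing, at levels that differed between the groups. The osteoblast and osteocyte list was at 1417 to 4596 in WT, 7107 to 12389 in VitC+ and 3001 to 8662 in VitC+/-, and the fibroblast and periosteum list at 114 to 393, 409 to 629 and 151 to 1113. Single genes of both lists were split in VitC+/- against WT, with 8 of 16 osteoblast and osteocyte genes higher and 8 lower. Of 9 tested fibroblast and periosteum genes, 4 were higher and 5 lower. Spp1 was at 545, 343 and 490 in WT and at 4202.5, 2286 and 4138 in VitC+/-. Bglap went the other way, from 1320, 139 and 481 to 11.2, 8.15 and 8.75, so that a sum can rest on a few high genes. No gene of these 5 lists was at 0 in every library of a group. The neuron list was low in all groups, at 1.87 to 13.0 in WT, 4.09 to 6.86 in VitC+ and 3.18 to 9.48 in VitC+/-, and the Schwann cell list was at 22.5 to 45.4, 34.8 to 55.8 and 28.0 to 30.51. The part of these cell types in the protocadherin levels was not tested.

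Of the non-clustered protocadherins, which are single genes with related extracellular domains, 4 of 12 were tested. Pcdh7 fell in VitC+/- against VitC+, from 1.96, 2.77 and 3.51 scaled RPKM to 1.05, 0.683 and 1.37 (log2 difference -1.08, SE 0.248, limma, adjusted p = 0.0243, and 0.0342 without VitC+ replicate 1). Pcdh1 rose in VitC+/- against WT, from 1.15, 0.805 and 0.594 to 2.10, 1.51 and 2.12 (log2 difference 0.85, SE 0.217, limma, adjusted p = 0.0173), but missed the threshold without WT replicate 3 (adjusted p = 0.0681). Of 16 known regulators of the clusters, including CTCF, cohesin, DNA methyltransferases and the H3K9 methyltransferase Setdb1, 15 were tested and 0 passed between VitC+/- and VitC+. Between VitC+/- and WT, Wiz, a zinc finger partner of H3K9 methyltransferases, was higher (log2 difference 0.61, limma, adjusted p = 0.0181), and Smc1a, a cohesin subunit, was lower (log2 difference -0.72, limma, adjusted p = 0.0434). That is 1 of 15 regulators in each direction, where 15.3% of all genes passed as higher and 15.9% as lower. Of 11 genes that act downstream of clustered protocadherins at the membrane and the cytoskeleton, 9 were tested. The kinase gene Fyn was lower in VitC+/- than in VitC+ (log2 difference -0.91, limma, adjusted p = 0.0313, and 0.0772 without VitC+ replicate 1). Against WT, Nckap1, a subunit of the WAVE complex (log2 difference 1.33, adjusted p = 0.00747), and the kinase gene Ptk2 (1.16, adjusted p = 0.0160) were higher, and Rac1 (-0.45, adjusted p = 0.0255) and Ptk2b (-0.52, adjusted p = 0.0295) lower, all by limma. Without WT replicate 3 the direction of these 6 genes was the same, and of them Nckap1 passed (limma, adjusted p = 0.0341) while the others had an adjusted p of 0.0621 to 0.108. Beside the same shares of all genes against WT, 2 of 9 downstream genes passed in each direction and 1 of 4 non-clustered protocadherins as higher. In VitC+/- against VitC+, 1 of 9 downstream genes and 1 of 4 non-clustered protocadherins passed as lower, where 7.52% of all genes did. With so few genes tested, these counts are a description. None of the genes of these 3 lists passed between WT and VitC+ or in any Tet comparison.

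In the Tet femurs, 44 of 58 members passed the filter, set at 10 normalized counts or more in 3 libraries: 1 alpha member (Pcdhac2), 21 of 22 beta members and 22 of 22 gamma members. No member passed the threshold in any of the 3 comparisons with Ctrl by limma, edgeR or DESeq2, where limma called 0% of the 16780 genes tested for Tet1/2 cKO and 0.0119% each for Tet1 cKO and Tet2 cKO (0.00596% in each direction). At an unadjusted p under 0.05, 5 of 44 members passed for Tet1/2 cKO, against 5.05% of all genes. These were Pcdhb5, Pcdhb11, Pcdhb20, Pcdhga3 and Pcdhga8, all lower and all but Pcdhb20 named after their values were seen. The number was 0 for Tet1 cKO and for Tet2 cKO, against 2.28% and 2.19%. The order of the levels was like that in the VitC femurs. Pcdhgc3 gave 36.2 to 59.5% of the gamma sum, and Pcdhb9 was the highest beta member in 12 of 12 libraries.

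Pcdhgc3 had normalized counts of 913, 528 and 751 in Ctrl. In Tet1 cKO it was at 772, 780 and 1775, in Tet2 cKO at 1789, 263 and 1933, and in Tet1/2 cKO at 199, 563 and 582. Every cKO group overlapped with Ctrl, and the log2 differences were 0.52, 0.44 and -0.82, each with an SE of 0.710 (limma, adjusted p from 0.741 to 1.000). Pcdhb9 was within a narrow range in Ctrl, at 159, 165 and 172, and was above it in all 3 Tet1 cKO libraries, at 359, 263 and 219 (log2 difference 0.73, SE 0.404, limma, adjusted p = 1.000). It was at 321, 108 and 318 in Tet2 cKO and at 160, 124 and 123 in Tet1/2 cKO. Pcdhac2 varied widely within groups, at 42.3, 5.42 and 27.1 in Ctrl, 71.0, 40.3 and 159 in Tet1 cKO, 64.3, 3.92 and 86.1 in Tet2 cKO, and 12.2, 73.0 and 23.0 in Tet1/2 cKO.

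Tet1/2 cKO had the lower mean in 39 of the 50 detected members and the higher in 8, against 50.1% and 47.1% of all genes above 0. In 9 members, 6 beta and 3 gamma, every Tet1/2 cKO library lay below every Ctrl library, and in 0 above, against 8.72% and 6.22% of all genes. Among them were Pcdhb17, at 100, 149 and 134 in Ctrl and 27.5, 74.6 and 87.3 in Tet1/2 cKO, and Pcdhb20, at 76.1, 141 and 107 against 41.2, 62.4 and 32.6. Pcdhgb2 was at 67.7, 62.3 and 49.5 in Ctrl and at 6.10, 40.3 and 39.3 in Tet1/2 cKO, whereas Pcdhgb6 overlapped, at 43.4, 17.6 and 55.7 against 47.3, 50.2 and 43.2. The adjusted p of Pcdhb17, Pcdhb20 and Pcdhgb2 was 0.723 each (limma). Over the 44 tested members, 36 lay lower, with a median log2 difference of -0.85, against -0.0072 over all genes tested. Without the libraries with the lowest member levels, Tet2 cKO replicate 2 and Tet1/2 cKO replicate 1, 30 lay lower and the median was -0.30. A smaller difference follows from leaving out libraries by these same levels and is a description only.

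In Tet1 cKO the means lay higher in 36 of the 50 detected members and lower in 11, against 50.1% and 46.6% of all genes, and 7 members did not overlap with Ctrl, all higher, against 3.72% of all genes higher and 3.43% lower. In Tet2 cKO they lay higher in 40 and lower in 10, against 52.3% and 45.1%, and 3 members did not overlap (Pcdhga2, Pcdhga9 and Pcdhga12, named after their values were seen), all higher, against 2.29% higher and 3.22% lower. The median log2 difference over the tested members was 0.35 for Tet1 cKO and 0.15 for Tet2 cKO, with 34 and 27 of 44 higher. In edgeR, fitted without Tet1 cKO replicate 3, it was 0.10 and 0.53, with 24 and 38 higher. Tet1 cKO replicate 3 had a gamma sum of 3043 against 1504 and 1356 in the other Tet1 cKO libraries. Without Tet2 cKO replicate 2 and Tet1/2 cKO replicate 1, the median for Tet2 cKO was 1.16 and 42 of 44 members lay higher, still with 0 past the threshold. As these libraries were picked for their low member levels, a higher median follows from the choice and is a description only.

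**Figure D3:**
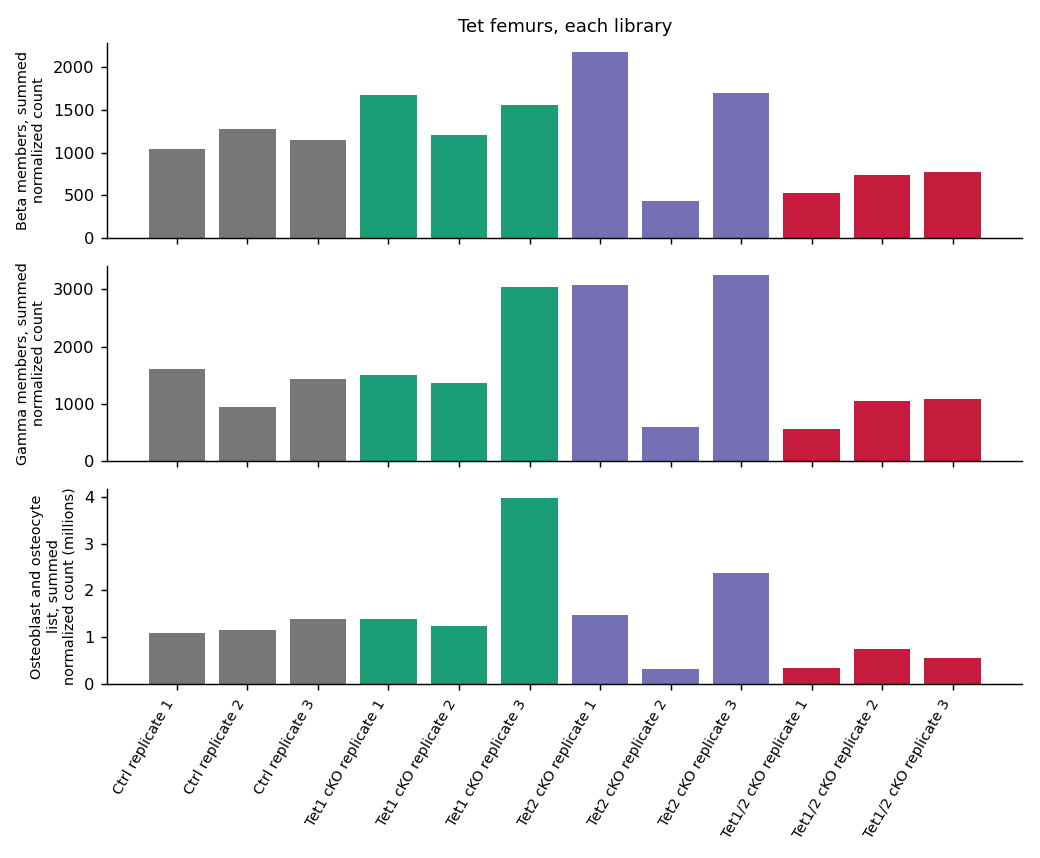
Normalized counts summed over the beta members, the gamma members and the osteoblast and osteocyte marker list (M) in each of the 12 Tet femur libraries, coloured by group. Tet2 cKO replicate 2 and Tet1/2 cKO replicate 1 are lowest in all 3 panels, with beta sums of 428 and 521.

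The same libraries were low in osteoblast markers. The osteoblast and osteocyte list summed to 328148 in Tet2 cKO replicate 2 and 347825 in Tet1/2 cKO replicate 1, the lowest of the 12, and to 558623 and 753781 in the other Tet1/2 cKO libraries, against 1083980 to 1381980 in Ctrl. The neutrophil list was highest in Tet1/2 cKO replicate 1 and Tet2 cKO replicate 2, at 2666580 and 1658810, against 826806 to 1252280 in Ctrl. The fibroblast and periosteum list was at 34729 to 81899 in Tet1/2 cKO and at 65583 to 137095 in Ctrl. The neuron list was at 237 to 443 in Ctrl and at 85.5 to 181 in Tet1/2 cKO, with Snap25 at 0 in all 12 libraries, and the Schwann cell list was at 5604 to 6159 and 5925 to 8038. Other lists also lay lower in Tet1/2 cKO than in Ctrl. All 8 skeletal muscle genes (median log2 difference -3.82), all 6 chondrocyte genes (-2.97) and all 8 osteoclast genes (-1.18) were lower, with 0 past the threshold. Of the 7 tested erythroid genes, 5 were higher and 2 lower. The part of cell composition in the lower member levels of Tet1/2 cKO was not tested.

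H3K9me3, a mark of heterochromatin, covered most of the gamma cluster in MC3T3-E1 cells, both with and without VitC. Peaks covered 59.5% of the gamma cluster in VitC+ and 58.8% in VitC-, or 107 and 106 kb, of which 102 kb was shared. Of 13324 autosomal tiles of the same length, 8 in VitC+ and 6 in VitC- were covered as much or more, and the median tile was covered to 0.550% and 0.913%. The beta cluster was covered to 22.9% and 16.8%, which 0.566% and 1.52% of tiles of its length reached. The alpha cluster was covered to 0.393% and 0.324%, less than the median tile of its length (0.697% and 1.10%).

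The longest H3K9me3 peak of VitC+ ran over 85.2 kb of the gamma cluster (chr18:37674971-37760201, fold enrichment 4.97). In VitC- the same stretch was split, and its longest peak measured 48.5 kb (chr18:37674997-37723483, fold enrichment 3.755), which was also the strongest over the clusters in that list. The strongest peak in VitC+ followed the long peak at chr18:37761794-37769533, with a fold enrichment of 5.21, above 98.4% of all autosomal peaks of its list. Over the autosomes the covered length was 43103 kb in VitC+ and 66134 kb in VitC-, a log2 ratio of -0.62. Over the gamma cluster the log2 ratio was 0.018, over beta 0.43 and over alpha 0.13, with 1 kb added to each length as in every ratio of covered lengths given here. The adjacent regions differed from each other, with a log2 ratio of 0.67 before alpha and of -1.25 after gamma.

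**Figure D4:**
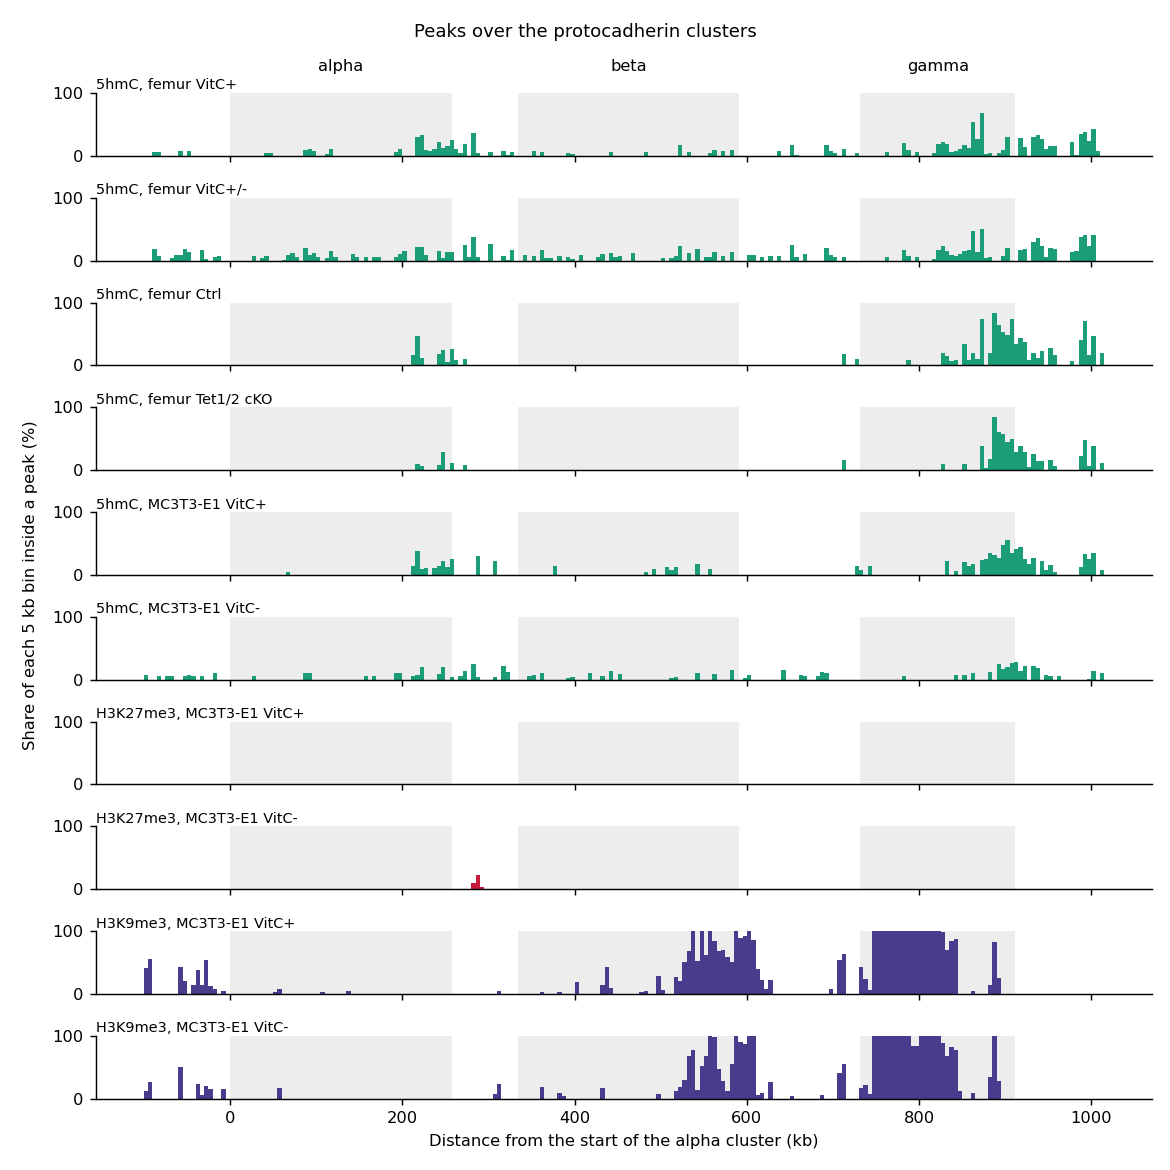
Share of each 5 kb bin inside a peak (0 to 100%), by distance from the start of the alpha cluster in kb, with 1 row for each of the 10 peak lists and the clusters shaded grey. H3K9me3 fills most of the gamma cluster and the end of the beta cluster in both MC3T3-E1 lists and covers 0.393% or less of alpha, no H3K27me3 peak lies in a shaded region, and 5hmC peaks in femurs include strong ones near the ends of the alpha and gamma clusters.

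The start of each member was examined as the 2.5 kb from its transcription start, which spans roughly the variable exon. An H3K9me3 peak touched 21 of 22 gamma windows, 9 of 22 beta windows and 0 of 14 alpha windows in each list, against 3.25% of the windows of all 20501 protein-coding genes in VitC+ and 3.90% in VitC-. The same 30 members were touched in both lists. In the gamma cluster 17 windows in VitC+ and 15 in VitC- were covered completely. The beta members touched were Pcdhb14 to Pcdhb22, the part of that cluster nearest to gamma, and Pcdhb17, Pcdhb18 and Pcdhb22 were covered completely in both lists. The beta members described here by their windows, and the members named below for 5hmC, were chosen after the values were seen. Pcdhb15 was covered to 96.6% in VitC+ and 35.2% in VitC-, and Pcdhb19 to 99.2% and 41.4%, whereas Pcdhb21 was covered to 76.2% and 100%.

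Pcdhgc3 was the gamma member without an H3K9me3 peak in its window. Its neighbours were covered, with Pcdhgc4 at 100% in both lists and Pcdhgc5 at 80.2% and 86.7%. Pcdhgc3 was also the most expressed gamma member in femurs, where the other 21 gamma members had mean levels of 0.0459 to 0.270 scaled RPKM against 3.18. In the beta cluster the 9 covered members had a median level of 0.249 scaled RPKM (0.117 to 0.718) and the 13 others 0.158 (0 to 1.48), so that the ranges overlapped. The peaks came from cultured cells and the levels from flushed femurs, and these values are a description.

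**Figure D5:**
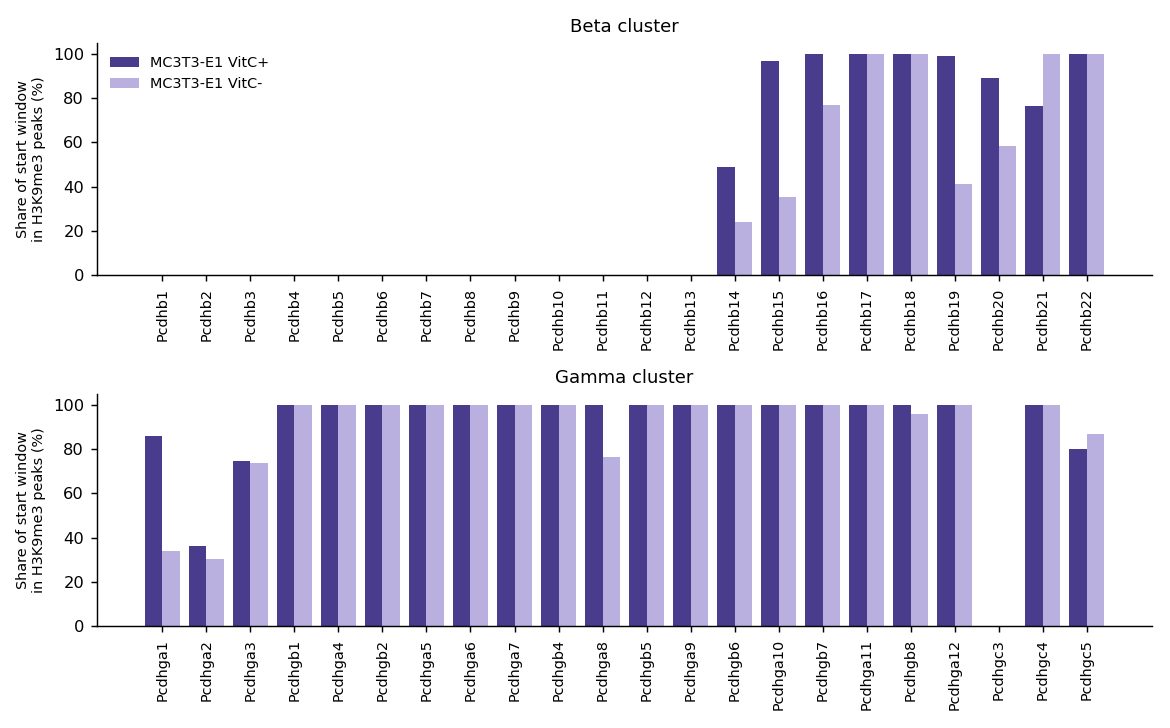
Share of the 2.5 kb start window of each beta and gamma member that lies in an H3K9me3 peak in MC3T3-E1 cells with VitC (dark) and without it (light), in chromosomal order. Bars appear from Pcdhb14 to Pcdhb22 and over every gamma member except Pcdhgc3.

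H3K27me3, the mark of Polycomb repression, was not found over the clusters. No peak lay in the alpha, beta or gamma cluster in either list, while the adjacent region of equal length before alpha held 153 kb in VitC+ and 213 kb in VitC-, and that after gamma 98.6 and 234 kb. Tiles without a peak were common, at 39.3% and 36.5% for the length of alpha, 39.3% and 36.5% for beta and 46.1% and 42.7% for gamma in VitC+ and VitC-. None of the 58 member windows was touched, against 16.9% and 21.2% of all protein-coding genes. A list holds only regions above a peak caller's threshold, so that H3K27me3 below it was not detectable.

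5hmC was sparse at the starts of the members. Of the 58 windows, 5 were touched in VitC+ femurs, 3 in VitC+/-, 5 in Ctrl, 2 in Tet1/2 cKO, 15 in MC3T3-E1 VitC+ and 1 in MC3T3-E1 VitC-. The corresponding shares of all protein-coding genes were 36.7%, 33.8%, 50.6%, 33.3%, 41.7% and 24.6%. The median ratio of observed to expected CpG in the windows was 0.662 in alpha, 0.432 in beta and 0.554 in gamma, and 0.385 over all genes.

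In VitC+/- against VitC+ femurs, 5hmC covered 40.8 kb of the clusters against 33.4 kb, a log2 ratio of 0.28, where the autosomes had a ratio of -0.0040. The covered length went from 4.33 to 11.8 kb in the beta cluster and from 17.8 to 15.12 kb in the gamma cluster. The strongest peak over the clusters was at the same place in both lists, in the alpha cluster at chr18:37171126-37172229 in VitC+ (fold enrichment 21.6) and at chr18:37171149-37171661 in VitC+/- (19.2). Of the members touched, 3 were touched in both lists and 2 in VitC+ alone (Pcdhb10 and Pcdhgb8), against 7.08% of all genes touched in VitC+ alone.

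In Tet1/2 cKO against Ctrl femurs, 5hmC covered 22.3 kb of the clusters against 34.6 kb. The log2 ratio was -0.61, nearer to 0 than that of the autosomes (-1.15) and of the regions on both sides (-1.18 and -1.16). The gamma cluster had 19.7 kb against 28.4 kb, of which 18.7 kb was shared, and the beta cluster had no peak in either list. The strongest peak lay in both lists over the start window of Pcdhgc4 and ended before the start of Pcdhgc5. It was at chr18:37815709-37819193 in Ctrl (fold enrichment 10.6) and chr18:37815654-37819146 in Tet1/2 cKO (9.96). Of the Pcdhgc4 window 74.8% was covered in Ctrl and 77% in Tet1/2 cKO, and other peaks covered 96.7% and 89.7% of the Pcdhgc5 window. Windows touched in Ctrl alone were those of Pcdhac2 (54.4%), Pcdhgb8 (28.8%) and Pcdhga12 (14.7%), against 18.1% of all genes touched in Ctrl alone. The Pcdhgc3 window was not touched in any of the 6 5hmC lists.

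In MC3T3-E1 cells, 5hmC covered 31.3 kb of the clusters with VitC and 18.8 kb without it, a log2 ratio of 0.71, against 0.44 over the autosomes. Most of the difference lay in the gamma cluster, with 19.1 kb against 6.73 kb and a log2 ratio of 1.38, whereas beta had 4.55 against 5.70 kb and alpha 7.66 against 6.34 kb. Little of the covered length was shared, namely 2.495 kb of gamma, or 13.0% of the VitC+ and 37.1% of the VitC- length. The strongest VitC+ peak lay across the end of the gamma cluster and mostly beyond it (chr18:37841540-37842770, fold enrichment 19.8). The strongest VitC- peak lay in alpha (chr18:37174090-37174572, 9.17). Of the member windows, 14 were touched in VitC+ alone, 1 in both (Pcdhb15) and 0 in VitC- alone, against 26.7% of all genes touched in VitC+ alone and 9.61% in VitC- alone. The 14 comprised 2 alpha, 7 beta and 5 gamma members, with the largest share at Pcdhgb8 (44.3%), Pcdhgc5 (40%) and Pcdhb4 (29.4%). Where H3K9me3 peaks lay in the same cell line, 5hmC covered 3.755 kb of the 107 kb of gamma in VitC+ and 0.998 kb of the 106 kb in VitC-. The lists of the 2 marks may come from different days of culture. The 5hmC labels give 28 days, and for H3K9me3 the labels give 28 days and the methods 7.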

How the data were processed

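The authors aligned paired reads to mm10 with STAR (2.6.0b-1), counted genes with featureCounts (1.6.3) and deposited RPKM values for the VitC femurs. For the Tet femurs the authors deposited DESeq2-normalized counts, that is counts divided by size factors, a signal per gene. Peaks were called by the authors with MACS2 (2.1.1.20160309.6 per the labels) after BWA (0.7.15.1). The deposited lists give fold enrichment, a ratio over background, and −log10 q-values, with a lowest −log10 q of 1.01 in the histone lists, and one list stands for each group. The labels give 28 days of culture and the methods 7 days for the histone marks.

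RPKM values were divided by median-of-ratios factors over genes. limma (3.58.1) with trend was fitted to log2(scaled RPKM + 0.5) for genes that reached an RPKM of 1 in 3 or more libraries, and to log2(normalized count + 1) for genes at 10 or more in 3 libraries, with all groups of an experiment in 1 fit and Benjamini-Hochberg adjustment over all genes tested. Differences are on that log2 scale and understate changes of low genes. RPKM, transcript length and depth gave whole reads (within 0.1) for 98.3% of 13080 genes with 1 transcript, and the Tet values gave whole reads for 100% of values. edgeR (4.0.16) and DESeq2 (1.42.0) on these reads were alternatives, without Tet1 cKO replicate 3 in the Tet femurs, whose size factor lay close to 1, and edgeR called 793, 1912 and 5 genes in the VitC comparisons and 0, 0 and 1 for Tet1/2 cKO, Tet1 cKO and Tet2 cKO. The edgeR fits of the VitC femurs, and leaving out the libraries with the fewest reads, an unusual Gulo level or the lowest member levels, were chosen after seeing the data. All fits were tested on simulated data. Peaks were compared by covered length with RefSeq GRCm38.p6 as the annotation.

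The members and gene lists were chosen with earlier results of these data known. Named were the C-type genes, the 3 highest members of each cluster that passed the filter, members past the threshold, called genes of the lists and the strongest peaks. Femurs were sequenced after the marrow was flushed and the periosteum removed. Replicates were separate femur libraries, and p-values measure the spread between these. Whether a peak list of the histone marks pooled its dishes was not stated.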

Additional observations from a re-analysis of the deposited data

How the results depend on the processing

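All but 2 members missed the filter of an RPKM of 1 in 3 VitC libraries, so that the counts depend on the filter. The count of members past the threshold was 1 and 3 for VitC+/- against VitC+ with the RPKM filter at 0.1 (41 members tested) and with no filter (54). For VitC+/- against WT it was 9 and 12 under these filters, 11 of 42 with edgeR, 9 of 43 and 1 of 42 with edgeR without WT replicate 1 or 3 (12.8%, 12.7% and 5.70% of all genes higher in the 3 edgeR fits), and 0 to 1 of 2 when each library was left out. With the filter at 0.1, 4.84% of all genes passed as higher against VitC+ and 13.6% against WT. No share of all genes is given for the fits with no filter. The counts of 3 and 12 members there thus cannot be set against a background and are a description. Correlations of same-numbered libraries ran from -0.192 to 0.464 in the VitC and from -0.567 to 0.529 in the Tet femurs. Those of differently numbered libraries ran from -0.370 to 0.415 and from -0.621 to 0.555. These ranges overlapped, and whether the replicate numbers pair the samples was not settled. With the replicate number as a block, 1 member, Pcdhgc3, was lower in WT than in VitC+ (log2 difference -1.27, adjusted p = 0.0486), with 774 genes called in place of 0. The cause was not tested.

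Pcdhgc3 between VitC+/- and VitC+ changed sign to 0.10 without scaling, to 0.00246 with a pseudocount of 1 and to 0.0555 with edgeR, and ran from -0.395 to 0.211 when each library was left out. Pcdhb9 ran from -0.0454 to 0.400 there and was -0.0552 with edgeR without VitC+ replicate 1, and in Tet1/2 cKO it was 0.0244 after quantile normalization. When each library was left out, Pcdhac2 ran from -0.283 to 1.09 in Tet1/2 cKO and from -0.200 to 1.93 in Tet2 cKO, and Pcdhgc3 from -0.0552 to 1.38 in Tet2 cKO. None of these passed the threshold.

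Relative to the whole genome, the 5hmC ratio of the clusters in Tet1/2 cKO was 0.538, and the H3K9me3 ratio in MC3T3-E1 cells was 0.772. For H3K27me3 it was 0.687, which is the autosomal ratio with its sign turned, since the clusters held no peak. With bounds widened by 50 kb, the H3K27me3 ratio was -1.52, since 2 VitC- peaks lay between alpha and beta.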
